A study of Rattus norvegicus with 42 samples.

Results

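Bile acid uptake and conjugation was followed through 7 rat genes, Slc10a1, Slco1b2, Slco1a1, Slco1a4, Slc27a5, Baat and Akr1d1, in liver, brain, lung and mixtures of these tissues. Members were all probe sets of the deposited table whose single gene symbol in the platform annotation was 1 of these names, which gave 10 of 31042 probe sets tested and 7 of 14217 named genes. Slco1b2, Slco1a4 and Akr1d1 each had 2 probe sets. The brighter one over all 42 arrays is called the main and the other the second probe set.

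Total RNA came from untreated tissue of 1 rat, with an age given as 9 to 12 weeks, and was turned into cRNA and hybridised to Affymetrix arrays. There were 14 groups of 3 technical replicate arrays: pure liver, pure brain, pure lung, and 11 mixtures in which cRNA of the same 3 tissues was combined. Mixture names give the liver, then brain, then lung percentage, so 70/25/5 holds most liver. All groups share the animal, so every p-value below measures only the spread between technical arrays. Strain and sex are not given in the sources used here. All 16 hepatocyte markers were called higher in liver than in brain and than in lung, all 9 measured markers of neurons and glia were called higher in brain than in either other tissue, and all 8 markers of lung epithelium higher in lung. In such bulk RNA, fewer cells of a type and less RNA per cell cannot be told apart.

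Bile acids circulate between gut and liver. Hepatocytes take them up from sinusoidal blood through the sodium-dependent carrier encoded by Slc10a1 and through sodium-independent organic anion carriers of the Slco family. Inside the cell, returning or new bile acids are joined to coenzyme A and then to taurine or glycine before export into bile. Slco1a4 is also known as a carrier of the blood-brain barrier, where it sits in the endothelium of brain capillaries.

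RefSeq promoter windows, from 250 bases before to 50 bases after the gene's start on GRCr8, were found for 6 of the 7 genes, and Akr1d1 had no entry. They are shown for 5 genes because 3 of them hold a match to a hepatic factor motif and 2 belong to neighbouring Slco genes with different brain levels. Capitals mark the matches. They lie at chr6:106357895-106358194 (minus strand) for Slc10a1, chr4:176282334-176282633 (plus) for Slco1b2, chr5:68656088-68656387 (minus) for Baat, chr4:176681943-176682242 (minus) for Slco1a1 and chr4:176495797-176496096 (minus) for Slco1a4.
Slc10a1: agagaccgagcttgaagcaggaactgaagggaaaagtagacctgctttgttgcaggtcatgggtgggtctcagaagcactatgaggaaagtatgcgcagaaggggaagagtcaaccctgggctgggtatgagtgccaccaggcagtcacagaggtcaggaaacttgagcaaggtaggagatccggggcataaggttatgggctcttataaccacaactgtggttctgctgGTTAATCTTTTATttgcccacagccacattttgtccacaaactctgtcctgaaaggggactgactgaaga
Slco1b2: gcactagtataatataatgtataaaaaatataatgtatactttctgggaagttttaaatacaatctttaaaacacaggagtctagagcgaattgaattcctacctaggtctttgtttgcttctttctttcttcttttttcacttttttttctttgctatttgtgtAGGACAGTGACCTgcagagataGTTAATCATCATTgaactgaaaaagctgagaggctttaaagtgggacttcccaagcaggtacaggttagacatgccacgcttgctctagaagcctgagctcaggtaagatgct
Baat: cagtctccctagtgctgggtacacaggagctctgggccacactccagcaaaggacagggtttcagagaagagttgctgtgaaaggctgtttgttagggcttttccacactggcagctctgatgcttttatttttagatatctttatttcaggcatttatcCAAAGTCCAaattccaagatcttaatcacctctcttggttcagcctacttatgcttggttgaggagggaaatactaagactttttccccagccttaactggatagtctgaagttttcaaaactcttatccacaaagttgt
Slco1a1: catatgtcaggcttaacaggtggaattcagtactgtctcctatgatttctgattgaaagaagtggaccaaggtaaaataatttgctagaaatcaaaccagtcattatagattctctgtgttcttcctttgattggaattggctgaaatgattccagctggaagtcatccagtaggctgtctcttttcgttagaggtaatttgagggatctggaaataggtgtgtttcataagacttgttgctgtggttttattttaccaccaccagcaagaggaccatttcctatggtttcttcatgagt
Slco1a4: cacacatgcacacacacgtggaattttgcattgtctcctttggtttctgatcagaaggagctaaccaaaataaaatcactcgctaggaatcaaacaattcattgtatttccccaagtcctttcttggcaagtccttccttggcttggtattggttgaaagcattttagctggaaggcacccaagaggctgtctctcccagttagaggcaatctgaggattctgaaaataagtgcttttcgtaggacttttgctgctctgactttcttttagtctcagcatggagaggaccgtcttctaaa

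The motifs were searched on both strands. GTTAAT, part of the site of the hepatocyte factor HNF1, began 20 bases before the start of Slc10a1 and 63 bases before that of Slco1b2. It was found in 7.45% of 33469 promoters of the same length. The full HNF1 palindrome, allowed 3 mismatches, overlapped the same letters in both genes and was found in 8.72% of promoters. CAAAGTCCA, a site of the receptor HNF4, began 90 bases before the start of Baat and occurred in 0.391% of promoters. The inverted repeat bound by the bile acid receptor FXR, allowed 2 mismatches, was matched 85 bases before the start of Slco1b2 with 1 mismatch and occurred in 1.51% of promoters. The windows of Slco1a1, Slco1a4 and Slc27a5 held none of the 4 letter patterns. The windows of Slco1a1 and Slco1a4 were identical over 66.8% of their alignment, while the other 14 pairs lay between 48.5% and 51.7%. On chromosome 4 the order of the Slco members was Slco1b2, Slco1a4, Slco1a1.

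All levels below are log2 values after RMA, the authors' normalization, and a level of 1 probe set is compared only with the same probe set in other groups. Array medians ran from 5.48 to 5.83. Probe sets for the bacterial transcripts dap, lys, trp, thr and phe, which rat tissue lacks, mark a floor. The dap probe sets gave 2.43 to 3.09 on the 9 pure arrays, thr reached 3.51 in liver, and phe reached 4.58 in liver, 3.66 in brain and 3.51 in lung. Several brain and lung levels of the members lie in that range, and a fold against such a level is approximate. The number of arrays limits the precision. Pure tissues were called different at an adjusted p under 0.05 in limma and at least 2-fold. Under that rule 14.6% of probe sets were higher in liver than in brain and 10.8% higher in liver than in lung. Both comparisons share the liver arrays.

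All 10 member probe sets were called higher in liver than in brain, by 2.75- to 254-fold, and all 10 higher in liver than in lung, by 9.02- to 362-fold. Their median difference was 6.92 against brain and 6.60 against lung, where all probe sets had medians of 0.18 and 0.12. Between brain and lung, both Slco1a4 probe sets were called higher in brain than in lung, 2 of 10 where 15.0% of all probe sets were, and Baat was called higher in lung than in brain, 1 of 10 where 15.9% of all were. These shares are near those of all probe sets, and the other 7 were not called.

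**Figure D1:**
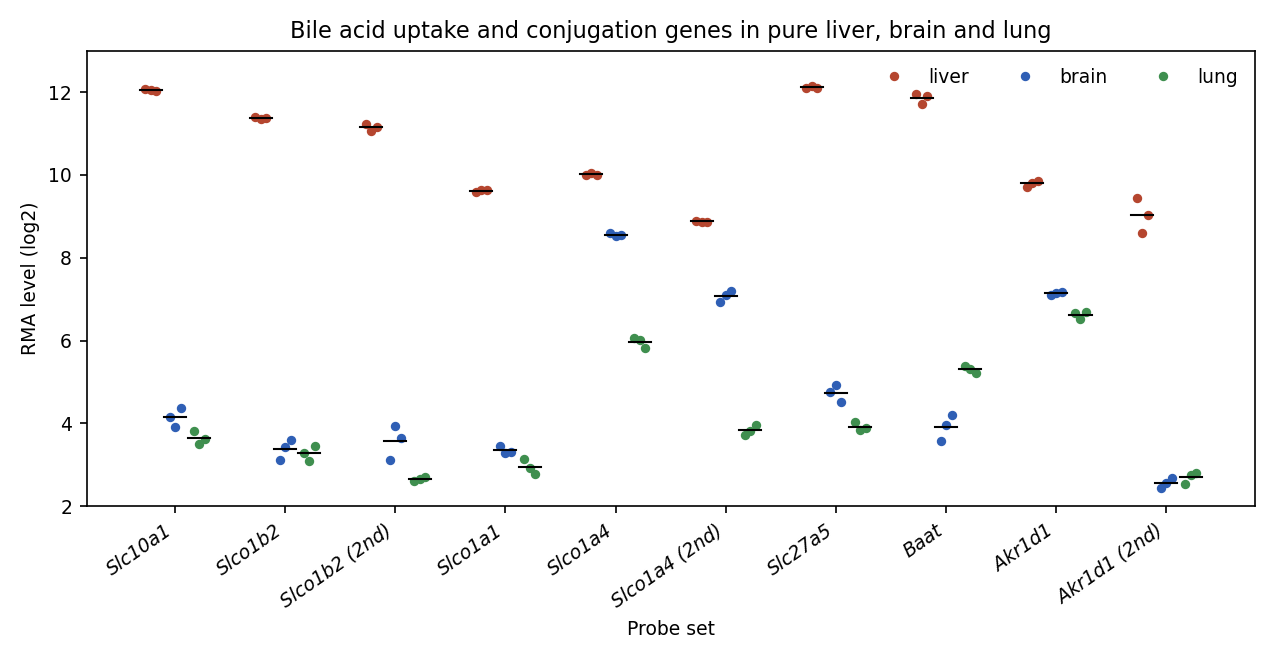
RMA level (log2) of each of the 10 probe sets on the 9 pure arrays. Points are single technical arrays in liver (red), brain (blue) and lung (green), and bars are group means. All liver points lie above the other tissues, and the brain points of both Slco1a4 probe sets lie well above the lung points.

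Slc10a1 (probe set 1368609_at), the sodium-taurocholate cotransporter of the sinusoidal membrane, read 12.07, 12.06 and 12.03 on the liver arrays. The brain arrays read 4.15, 3.90 and 4.38 and the lung arrays 3.83, 3.51 and 3.62. Liver stood apart by more than 7 log2 units, and brain lay above lung on every array. The level in liver was 240-fold that in brain (95% interval 215 to 267, adjusted p = 1.89e-40 in limma) and 338-fold that in lung (adjusted p = 4.32e-41). Brain exceeded lung by 0.50 ± 0.08 (SE), below the fold limit.

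Slco1b2 (1369746_a_at), the main organic anion carrier of rodent hepatocytes, read 11.40, 11.34 and 11.37 in liver. Brain arrays read 3.12, 3.43 and 3.60 and lung arrays 3.30, 3.09 and 3.47, ranges that overlap. The liver level was 254-fold that of brain and 272-fold that of lung. The difference between brain and lung was 0.10 ± 0.08, with a 95% interval from -0.06 to 0.26 (adjusted p = 0.280 in limma). Its second probe set (1387679_at) read 11.24, 11.07 and 11.16 in liver. It read 3.12, 3.94 and 3.65 in brain and 2.61, 2.66 and 2.71 in lung. Here brain lay above lung on all arrays, by 0.91 ± 0.11, just below the fold limit, and was not called. The call was made (1.14) without brain replicate 1, the lowest brain array.

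Slco1a1 (1387567_at), another sinusoidal organic anion carrier, read 9.59, 9.64 and 9.63 in liver. Brain read 3.45, 3.28 and 3.32, and lung 3.15, 2.93 and 2.78. The liver level was 76.9-fold that of brain and 101-fold that of lung, and brain lay above lung on all arrays by 0.40 ± 0.07, below the fold limit.

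Slco1a4 (1387093_at) had a different pattern. Liver arrays read 10.01, 10.04 and 9.99, brain arrays 8.59, 8.52 and 8.56 and lung arrays 6.06, 6.01 and 5.81. No range overlapped, and brain lay much nearer to liver than to lung. Liver exceeded brain by only 2.75-fold (95% interval 2.56 to 2.95, adjusted p = 5.56e-24 in limma), while it exceeded lung by 16.6-fold. Brain exceeded lung by 6.04-fold (5.63 to 6.48, adjusted p = 2.47e-31).

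The second Slco1a4 probe set (1387094_at) gave the same order. It read 8.89, 8.87 and 8.87 in liver, 6.93, 7.09 and 7.21 in brain and 3.73, 3.82 and 3.97 in lung. The groups again did not overlap. Liver exceeded brain by 3.48-fold and brain exceeded lung by 9.43-fold (adjusted p = 2.25e-29 in limma). The 2 probe sets carry the same symbol and are not independent genes. Brain against lung ranged from 2.49 to 2.76 for the main and from 3.13 to 4.27 for the second probe set over all alternatives tried. Liver against brain fell to 0.94 and 1.00 (adjusted p = 0.000199 and 8.16e-05 in limma) when arrays were rescaled on their hybridisation controls with a fitted curve, which ends both calls at 2-fold. That curve moved the median of all probe sets in the same comparison by -0.83. Relative to the median, Slco1a4 was higher in liver than in brain by 1.60 and 1.65 with the curve and by 1.28 and 1.62 without it. The curve's shift depends on the level of a probe set, so the shift of the median need not hold at the level of Slco1a4. These relative values therefore do not restore the 2 calls.

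Markers of other cells were read beside the brain level of Slco1a4. Of 16 hepatocyte markers, 11 were called higher in brain than in lung and 2 higher in lung, the fibrinogen chain Fgg (8.97-fold) and Cyp2e1 (2.45-fold), and their summed linear level (as log2) was 12.50 to 12.53 on brain arrays, 10.06 to 10.12 on lung arrays and 17.17 to 17.21 on liver arrays. As a share of the liver level, the markers' brain levels had a median of 0.805% and reached 1.72% in all but Alb (albumin), which stood at 23.4%. The brain level of Slco1a4 was 36.4% of its liver level by the main and 28.7% by the second probe set, above all 16 markers. The other uptake probe sets lay between 0.393% and 1.30% in brain, within or below the range of the markers without Alb. The source of these brain levels was not tested.

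**Figure D2:**
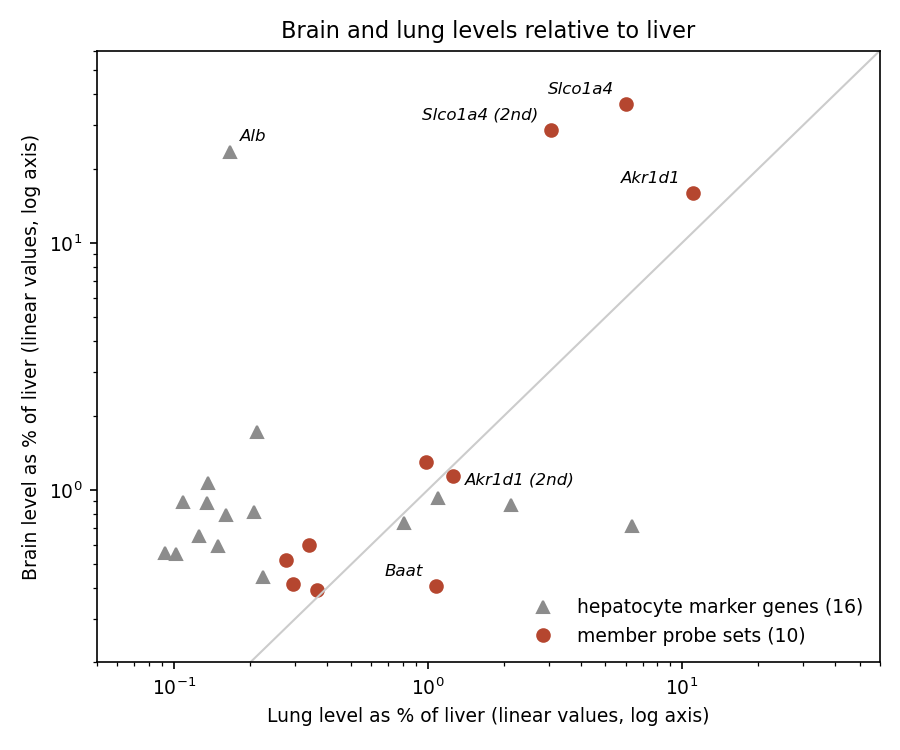
Brain level against lung level, each as a percentage of the liver level of the same probe set (linear values, log axes). Circles are the 10 member probe sets, triangles the 16 hepatocyte markers, and the line marks equal levels in brain and lung. Both Slco1a4 probe sets (36.4% and 28.7% in brain) lie above Alb (23.4%).

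Of 15 measured genes linked to blood-brain barrier endothelium, 9 were called higher in brain than in lung and 5 higher in lung, with a median difference of 1.14. Of all 14217 named genes, 2209 were higher in brain and 2955 higher in lung, and the median was -0.09. Between brain and liver, 5 of the 15 were called higher in brain and 3 higher in liver. Of all named genes 2842 were higher in brain and 2742 higher in liver. Slco1c1, the thyroid hormone carrier of that barrier, read 8.71 ± 0.07 (SD, n = 3) in brain and 3.13 ± 0.06 in lung, a 48.0-fold difference, with 3.59 ± 0.19 in liver. The efflux pumps Abcg2 and Abcb1a were 6.87- and 3.83-fold higher in brain than in lung, and the organic anion carrier Slc22a8 4.54-fold. Abcg2 and Abcb1a read 7.56 and 7.26 in liver and 7.37 and 6.95 in brain, and were not called between these tissues. The amino acid carrier gene Slc38a5 was 9.36-fold higher in lung, Cldn5, a tight junction gene that lung endothelium also has, 5.52-fold, Ocln 4.72-fold, Abcc4 3.26-fold and Foxq1 3.12-fold. All 10 measured genes of endothelium in general were higher in lung than in brain, among them Calcrl (40.4-fold), Kdr (23.9-fold) and Emcn (23.4-fold). Of 10 choroid plexus genes, 7 were higher in brain than in lung, among them Ttr (382-fold, also made by liver), Slc4a10 (150-fold, also a gene of neurons) and Igf2 (9.79-fold). Aqp1 went the other way and was 34.9-fold higher in lung. The part of any of these cells in the brain level of Slco1a4 was not tested.

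The arrays measured 9 other Slco genes. Among them 2 were called higher in liver than in brain and 3 higher in brain, while 1 was higher in liver than in lung and 2 higher in lung. Of all 14217 named genes, 2742 were higher in liver than in brain and 2842 higher in brain. Against lung 1955 were higher in liver and 2924 higher in lung. Counts among 9 genes are too small to be set apart from these shares. Slco2b1, a carrier of hepatocytes and other barriers, was 8.58-fold higher in liver than in brain and 6.24-fold higher in liver than in lung. Slco2a1, the prostaglandin carrier, read 10.91 ± 0.02 in liver and 11.43 ± 0.04 in lung but 4.98 ± 0.21 in brain. Slco1a5 was 10.8-fold and Slco3a1 11.1-fold higher in lung than in liver. Slco1a6, Slco4a1, Slco5a1 and Slco6b1 stayed below 5 in all 3 tissues and were not called.

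**Figure D3:**
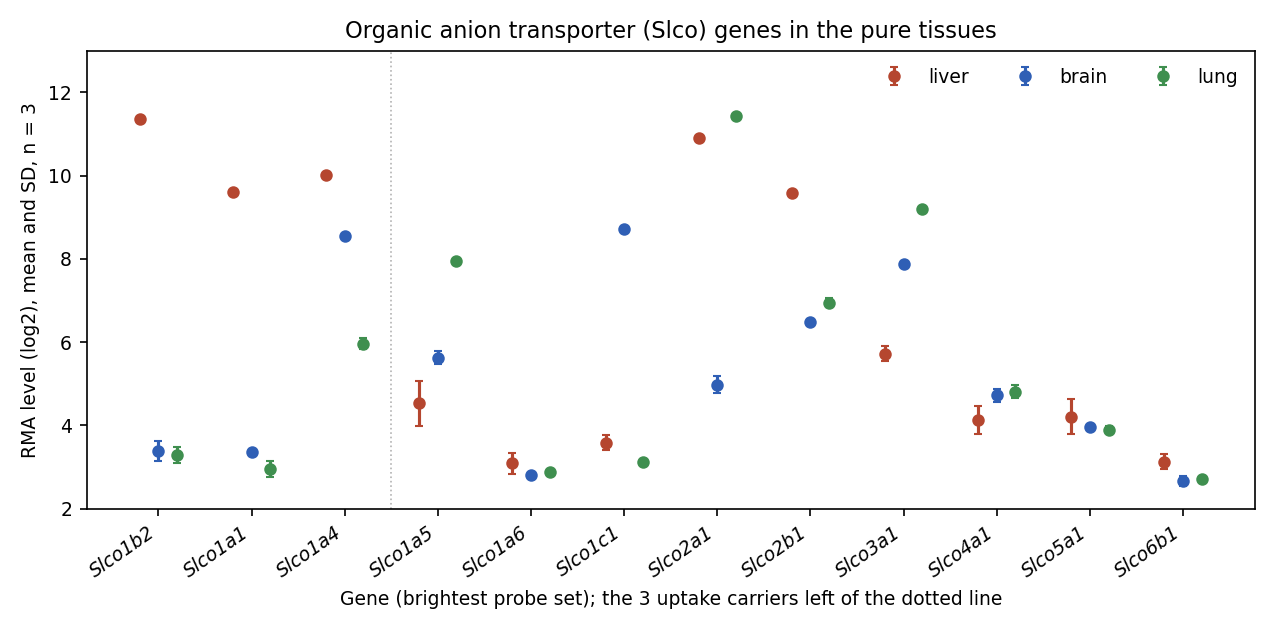
RMA level (log2, mean and SD over 3 technical arrays) of 12 Slco genes in liver (red), brain (blue) and lung (green), 1 probe set per gene. The 3 Slco members stand left of the dotted line. Slco1a4 is high in liver and brain, Slco1c1 in brain, and Slco2a1 in liver and lung.

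Both enzymes that conjugate bile acids were called higher in liver than in either other tissue. Slc27a5 (1387325_at), the bile acyl-CoA synthetase that activates returning bile acids, read 12.10, 12.15 and 12.11 in liver. Brain read 4.77, 4.93 and 4.52 and lung 4.04, 3.85 and 3.89, so brain was higher on all arrays. The liver level was 167-fold that of brain (adjusted p = 6.68e-42 in limma) and 293-fold that of lung, and brain exceeded lung by 0.81 ± 0.06, below the fold limit.

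Baat (1387508_at), which transfers the activated bile acid to taurine or glycine, read 11.96, 11.71 and 11.90 in liver. Brain arrays read 3.58, 3.96 and 4.21 and lung arrays 5.38, 5.32 and 5.23. Lung lay above brain on every array, the reverse of Slc27a5. The liver level was 245-fold that of brain and 93.2-fold that of lung. Lung exceeded brain by 2.63-fold (95% interval 2.34 to 2.95, adjusted p = 4.15e-17 in limma). The lung level was still 1.07% of that in liver.

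Akr1d1, the reductase that gives the steroid nucleus of bile acids its bent shape, was read differently by its 2 probe sets. The main probe set (1398310_at) gave 9.70, 9.82 and 9.87 in liver, 7.10, 7.15 and 7.17 in brain and 6.66, 6.51 and 6.70 in lung. The second (1392384_s_at, a suffix Affymetrix used for probe sets that may match more than 1 transcript) gave 9.45, 8.59 and 9.04 in liver, 2.45, 2.56 and 2.67 in brain and 2.54, 2.77 and 2.81 in lung. Both called liver higher, but with folds over brain of 6.29 and 88.2 and over lung of 9.02 and 79.7. Brain stood at 15.9% of liver by the main and 1.13% by the second, whose brain and lung levels lie in the range of the dap controls. The liver arrays of the second probe set spread over 0.86 log2 units, with an SD of 0.43. Why the 2 differ was not tested.

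Other genes of the pathway were mostly higher in liver too. Of 14 measured genes of bile acid synthesis, 11 were called higher in liver than in brain and 2 higher in brain, and 11 were higher in liver than in lung while the other 3 were not called. All named genes counted 2742 higher in liver than in brain and 1955 higher in liver than in lung. Akr1c14, a steroid dehydrogenase, was 167-fold and Cyp7a1, the rate-limiting enzyme of synthesis, 145-fold higher in liver than in brain. Cyp8b1 was 120-fold and Slc27a2, a second bile acid CoA ligase, 66.3-fold higher. Cyp46a1, the cholesterol hydroxylase of neurons, and Cyp7b1, the oxysterol hydroxylase, were 4.29- and 2.07-fold higher in brain. Cyp7b1 read 3.60 ± 0.27 (SD, n = 3) in liver, in the range of the phe controls there, so its fold is approximate. The Cyp7b1 difference of 1.05 lies at the fold limit. The count higher in brain was 1 without liver replicate 2, without liver replicate 3, with arrays centred on their medians and with dim probe sets left out.

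Of 14 measured genes of bile acid export, other transport and sulfation, 8 were called higher in liver than in brain. Abcb11, the canalicular bile salt export pump, was 133-fold higher, Slc22a7 91.5-fold, Abcc2 76.5-fold and Atp8b1 27.7-fold. In the comparison with lung 8 were higher in liver, and Abcc3 and Abcc4, pumps of the basolateral membrane, were 2.10- and 4.09-fold higher in lung. Their liver levels, 4.46 ± 0.25 and 4.56 ± 0.41 (SD, n = 3), lie in the range of the phe controls in liver, so these folds are approximate. The count higher in lung was 1 without liver replicate 2, with arrays centred on their medians and with dim probe sets left out. The ileal genes Slc10a2 and Fabp6 read 3.64 ± 0.08 and 3.58 ± 0.29 in liver and were not called. The sulfotransferase gene Sult2a1 read 2.86 ± 0.05 in liver, in the range of the dap controls, and was not called either. Of 9 measured genes of bile acid sensing and hepatocyte transcription, 9 were higher in liver than in brain and 7 higher in liver than in lung. Hnf4a was 149-fold, Nr1h4, which encodes FXR, 66.4-fold, Foxa2 34.4-fold and Nr5a2 32.9-fold higher in liver than in brain. Foxa2 and Fgfr4, both also genes of lung, differed between liver and lung by -0.12 and -0.31, and 2 genes of this list were called higher in lung after the curve through the hybridisation controls.

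In the mixtures, the tissues were combined as cRNA, so a mixture's level should be the sum of the pure linear levels weighted by share. By that sum, liver supplied 83.1% or more of the expected level of Slc10a1, Slco1b2, Slco1a1, Slc27a5 and Baat in every mixture, even at 5% liver. Slco1a4 and the main Akr1d1 probe set were different. In 25/70/5, brain supplied 50.2% of the expected level of Slco1a4 by the main probe set and liver 49.2%, and in 5/25/70 brain supplied 49.7%, liver 27.3% and lung 23.0%. By the second probe set liver supplied 55.3% and brain 44.4% in 25/70/5, and brain supplied 50.2% and liver 34.9% in 5/25/70. For the main Akr1d1 probe set, liver supplied 68.2% and brain 30.3% in 25/70/5. In 5/25/70 lung supplied 46.4% of it, liver 29.9% and brain 23.7%. For the second Akr1d1 probe set liver supplied 81.2% in 5/25/70.

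**Figure D4:**
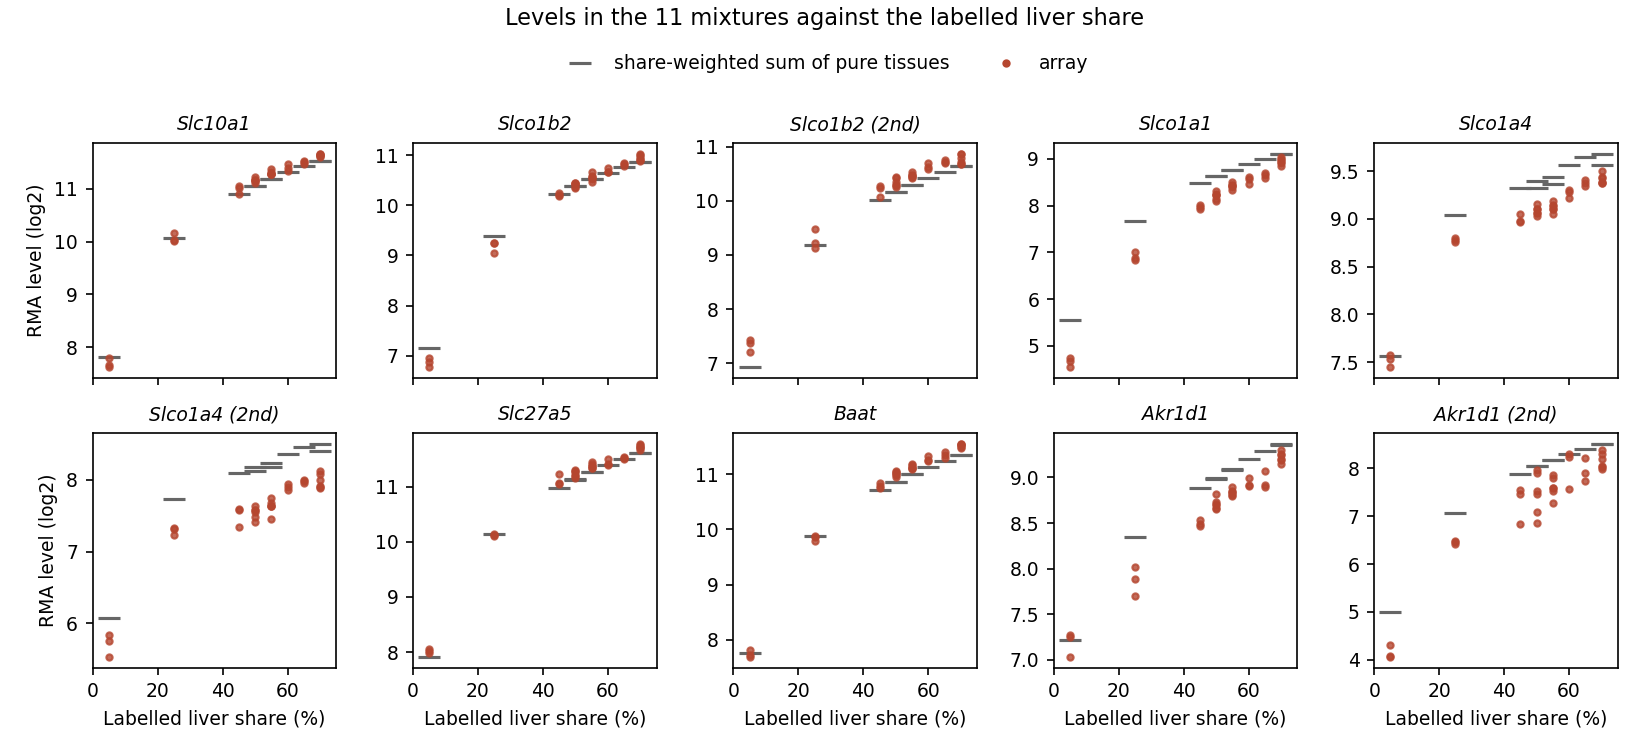
RMA level (log2) of each probe set on the 33 mixture arrays against the labelled liver share. Points are single arrays, and dashes mark the level predicted for each mixture from the pure arrays. Points of Slc10a1, Slc27a5 and Baat lie close to the dashes, and those of Slco1a1 and both Slco1a4 and Akr1d1 probe sets mostly lie below them. The vertical scale differs between panels.

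When 45 points of liver were exchanged for brain, 70/25/5 against 25/70/5, all 10 probe sets were called higher with more liver, where 22.1% of all probe sets were. Here calls needed an adjusted p under 0.05 in limma with no fold limit. Slc10a1 read 11.67, 11.66 and 11.63 in 70/25/5 and 10.01, 10.03 and 10.17 in 25/70/5. Slco1a4 read 9.43, 9.50 and 9.44 in the first and 8.76, 8.80 and 8.78 in the second. The groups did not overlap for either gene, but the step was smaller for Slco1a4. Slc10a1 differed by 1.59 ± 0.08 (predicted 1.47) and Slco1a1, the largest, by 1.99 ± 0.07 (predicted 1.44). Slco1a4 differed by 0.68 ± 0.05 (predicted 0.65; adjusted p = 1.11e-13 in limma) and its second probe set by 0.77 ± 0.07 (predicted 0.77). After the curve through the hybridisation controls these 2 differences were 0.27 and 0.31 and were no longer called (adjusted p = 0.317 and 0.261 in limma).

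When 65 points of liver were exchanged for lung, 70/25/5 against 5/25/70, all 10 were again called higher with more liver, where 30.7% of all probe sets were. Slc27a5 read 11.72, 11.66 and 11.69 against 7.99, 8.05 and 8.01, a difference of 3.67 ± 0.06 (predicted 3.70). Slco1a4 read 9.43, 9.50 and 9.44 against 7.45, 7.53 and 7.57, a difference of 1.94 ± 0.05 (predicted 2.12). The range over the 10 probe sets was 1.94 to 4.25.

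Some pairs of mixtures had equal liver shares and exchanged brain for lung. Outside Slco1a4 the pure levels predicted differences of only -0.0027 to 0.0187 in 70/25/5 against 70/5/25 and -0.0017 to 0.0113 in 55/30/15 against 55/20/25. Such steps lie below the SEs of 0.06 to 0.20, so those probe sets could not show the exchange. In 70/25/5 against 70/5/25, 0 of 10 probe sets were called by limma, with 1 at an unadjusted p under 0.05, where 46.8% of all probe sets were called in either direction. That probe set was the second of Slco1a4, which read 8.08, 8.12 and 8.002 in 70/25/5 and 7.91, 7.88 and 7.90 in 70/5/25, so the arrays did not overlap. It differed by 0.17 ± 0.07 (predicted 0.10; adjusted p = 0.0602 in limma). It was called when the fit held only the 33 mixture arrays, when dim probe sets were left out, and without replicate 3 of 70/25/5 (0.20). The main Slco1a4 probe set differed by 0.08 ± 0.05 (predicted 0.11; adjusted p = 0.208). In 55/30/15 against 55/20/25, 0 of 10 were called by limma and 0 had an unadjusted p under 0.05, where 19.6% of all probe sets were called. Slco1a4 differed there by 0.01 ± 0.05 (predicted 0.07) and by 0.11 ± 0.07 for the second probe set (predicted 0.06). A step of 5 points of liver, 65/34/1 against 60/35/5, gave 0 of 10 calls by limma and 1 at an unadjusted p under 0.05, the main probe set of Slco1a4, where 2.50% of all probe sets were called. The predicted step was 0.08 to 0.11, the observed range -0.09 to 0.13, and 9 of 10 probe sets were higher with more liver.

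The mean gap between observed and summed level over the 11 mixtures, called the departure here, was tested at an adjusted p under 0.05 in limma and at least 1.5-fold. No member was called, 0 of 10, although 6 of 10 had an unadjusted and an adjusted p under 0.05 without the fold limit. Of all probe sets 0.325% were called above and 4.84% below, and 84.4% had an adjusted p under 0.05 at any fold. Slc10a1 departed by 0.07 ± 0.06, Slco1b2 by -0.01 ± 0.06, Slc27a5 by 0.09 ± 0.05 and Baat by 0.11 ± 0.06, and none of these 4 had an adjusted p under 0.05 in limma. The second probe set of Slco1b2 lay above the sum by 0.18 ± 0.08 (adjusted p = 0.0291).

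Slco1a1 lay below the sum in 11 of 11 mixtures, by -0.43 ± 0.05 in the mean (adjusted p = 3.75e-09 in limma). Its shortfall was -0.91 in 5/25/70, -0.76 in 25/70/5, -0.52 in 45/45/10 and -0.10 in 70/5/25. Slco1a4 departed by -0.25 ± 0.03 and -0.51 ± 0.04 and Akr1d1 by -0.26 ± 0.04 and -0.53 ± 0.14 by their main and second probe sets, each below in 11 of 11 mixtures. The second Akr1d1 probe set was called (-0.74) without liver replicate 2, its lowest liver array. With arrays centred on their medians 3 members were called below, Slco1a1 (-0.70) and the second probe sets of Slco1a4 (-0.74) and Akr1d1 (-0.79), and Slc10a1 (-0.20), Slc27a5 (-0.18), Baat (-0.16) and the second Slco1b2 probe set (-0.085) also lay below the sum. All probe sets departed by -0.22 in the median, and the 2259 called higher in liver than in both other tissues by -0.52. Above a liver level of 8, the median of these 2259 rose with that level. It was -0.58 at 8 to 9, -0.46 at 9 to 10, -0.27 at 10 to 11, -0.03 at 11 to 12 and 0.39 above 12. Slco1a1 and both Slco1a4 and Akr1d1 probe sets read 8.88 to 10.01 in liver, and the other member probe sets 11.16 to 12.12.

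Read as a gauge of liver content, each probe set gave an apparent liver share, the observed linear level less the predicted brain and lung parts, over the pure liver level. Slc10a1 gave 4.57% ± 0.30 (SD, n = 3) at 5% liver, 25.0% ± 1.55 at 25% and 75.7% ± 1.22 in 70/25/5. Its mean error over the 11 mixtures was 3.38 points, that of Slc27a5 3.22, of Slco1b2 1.28, of its second probe set 6.16 and of Baat 4.81. Slco1a1 gave 2.20% ± 0.22 at 5% liver, 14.4% ± 0.89 at 25% and 60.6% ± 1.77 in 70/25/5, a mean error of -10.7 points. Slco1a4 gave 4.42% ± 0.78, 16.7% ± 0.70 and 58.6% ± 1.73 in the same mixtures, a mean error of -10.3 points, and its second probe set -18.1. The Akr1d1 probe sets read -9.19 and -13.6 points low. The probe sets with negative mean errors were those with liver levels of 8.88 to 10.01, where liver-enriched probe sets in general fell below the sum. Order was kept better than size. Of 52 pairs of mixtures with unequal liver shares, 0 were out of order in mean level for Slc10a1, Slco1a1, Slc27a5, Baat and the main probe sets of Slco1b2, Slco1a4 and Akr1d1, 1 for the second Slco1b2 probe set and 4 each for the second ones of Slco1a4 and Akr1d1.

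**Figure D5:**
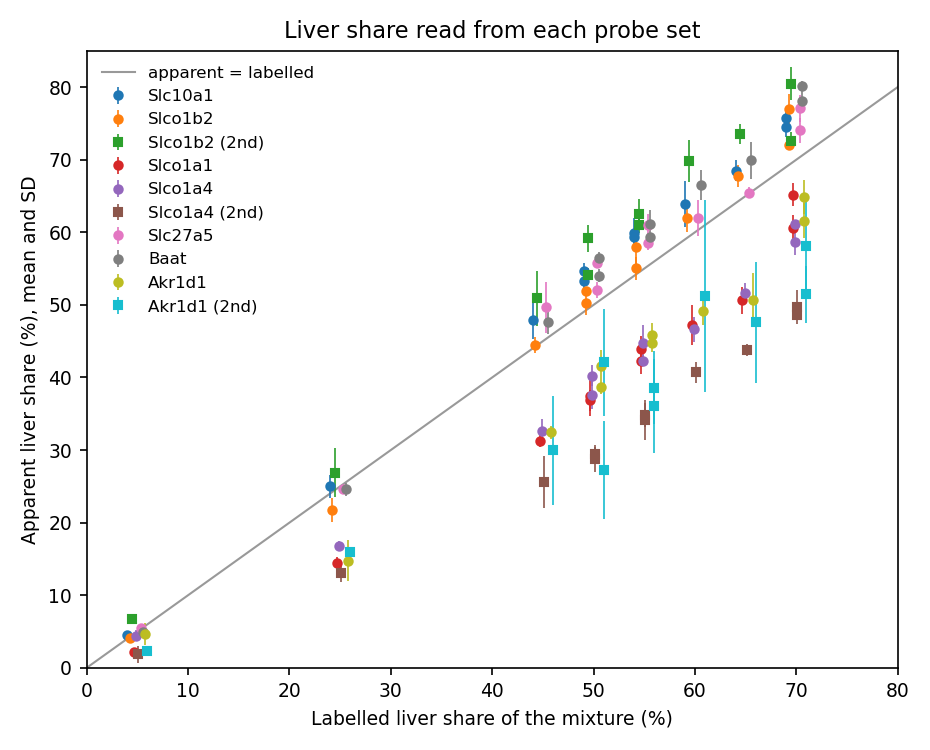
Apparent liver share (%, mean and SD over 3 arrays) read from each probe set in the 11 mixtures against the labelled liver share (%), with small sideways offsets for legibility. Circles are main and squares second probe sets, and the line marks equality. Slc10a1, Slco1b2, Slc27a5 and Baat lie near or above the line, and Slco1a1, Slco1a4 and Akr1d1 lie below it.

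The mixtures alone, without any pure array, were used to estimate each tissue's level by regressing the linear values of 33 arrays on the 3 shares. All 10 probe sets were called higher in liver than in brain, where 34.8% of all were, and all 10 higher in liver than in lung, where 36.5% were, at an adjusted p under 0.05 in limma. For Slc10a1 the liver estimate was 4594 ± 38.7 (linear units, SE) against 4246 ± 56.4 (SD) on the pure arrays, and the brain estimate of -78.5 ± 57.8 did not differ from 0.

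Slco1a4 was again higher in brain than in lung. The mixtures gave 279 ± 14.9 for brain and 98.6 ± 15.1 for lung by the main probe set, where the pure arrays gave 376 ± 8.72 and 62.5 ± 5.53. The second probe set gave 97.6 ± 9.64 for brain and 5.57 ± 9.81 for lung, against 135 ± 12.9 and 14.4 ± 1.19. Both differences were called (adjusted p = 1.22e-08 and 1.47e-06 in limma), where 31.7% of all probe sets were higher in brain. Another 5 probe sets, the main ones of Slco1b2 and Akr1d1 and those of Slco1a1, Slc27a5 and Baat, were called higher in lung, where 35.0% of all were, and 3 were not called. The pure arrays had brain above lung for 4 of these 5, all but Baat, so the direction was opposite there. In 4 of the 5, all but Akr1d1, the brain estimate was below 0, and that of Akr1d1 was within its SE of 0. Slco1b2 gave -223 ± 33.7 for brain and 51.1 ± 34.3 for lung, Slco1a1 gave -113 ± 15.9 and 23.3 ± 16.2, and Akr1d1 15.4 ± 16.6 and 147 ± 16.9. Estimates for brain lay below 0 in 6 of 10 member probe sets, in 35.6% of liver-enriched probe sets and in 5.68% of all. After the curve through the hybridisation controls 0 of these 5 were called, while both Slco1a4 calls were kept.

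Over the 14 group means, the genes whose levels ran most closely with each member were named from 1 probe set per gene. The groups share tissues and arrays, so these Pearson correlations are descriptions. Slc10a1 ran with Plg (r = 0.9998), Fgl1 and Itih1, and Slc27a5 with Apoa1 (0.9999), Cyp1a2 and Itih1. Slco1b2 ran with Cpb2 (0.9999), Mbl2 and C8a, Slco1a1 with Masp2 (0.9998), Serpina11 and Serpinf2, and Baat with Azgp1 (0.9998), Serpina3n and Hgd. Slco1a4 ran with Nipsnap1 (0.9993), Slc30a10 and Prox1. Nipsnap1 had the same order of tissues as Slco1a4, with 10.44 in liver, 8.91 in brain and 6.04 in lung. Akr1d1 ran with Bckdhb (0.9980), Gcdh and Dhcr7. The number of genes with r over 0.99 was 18 for Slco1a4, 54 for Akr1d1, 64 for Baat and 96 to 124 for the other 4 genes.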

How the data were processed

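The authors deposited values per probe set after RMA, per the submitters' processing notes. These deposited values are log2, as their range of 2.12 to 14.43 shows. Neither version nor settings of RMA are stated there. Because RMA draws the distributions of arrays toward each other, tissues that spread their RNA differently over genes may be scaled unevenly. The deposited distributions still differed, with array medians from 5.48 to 5.83. Of 31099 probe sets 57 controls were left out, leaving 31042, of which 20826 had 1 gene symbol, 436 several and 9780 were not listed in the annotation. No replicate arrays were identical (at most 28 equal values in a pair).

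One limma fit (limma 3.58.1, R 4.3.3) of 42 arrays with a mean per group gave differences, and Benjamini-Hochberg adjustment ran across the 31042 probe sets. The departure's error came from the delta method. The regression used limma with a variance trend. Steps were run on simulated arrays with normal noise around additive mixtures and known shifts. That setting is simpler than these data, so it checks the code and not whether real mixtures add. Promoters came from RefSeq (GRCr8) and were aligned with Biopython 1.88. Figures were drawn with matplotlib 3.10.9.

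Members, gene lists (1 probe set per gene, the brightest), tests and alternatives were chosen with earlier results of these data known. All 7 members are named. From lists described by gene, up to 4 with the largest differences are named, plus those against the list's majority. A few others were named after their values were seen. For each member the 3 genes with the highest correlation are named.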

Additional observations from a re-analysis of the deposited data

How the results depend on the processing

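All 20 pure differences of liver against brain or lung kept their direction under the alternatives run, and their calls too, except Slco1a4 against brain after the curve through the hybridisation controls. That curve takes these controls as added equally to every array, which was not tested, and moved the medians of all probe sets in liver against brain and against lung by -0.83 and -0.90. No paired analysis was possible because the replicate numbers follow accession order only.

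With 1 probe set per gene, fewer features were tested and the counts called were 5584 for liver against brain, 4879 for liver against lung, 5164 for brain against lung and 1366 for liver against both, and 1 member probe set was higher in brain than in lung. With the 5th percentile of each array subtracted, 6 members were higher in brain than in lung, adding Slc10a1 (1.05), the second Slco1b2 (1.75), Slco1a1 (1.25) and Slc27a5 (1.35); 3760 probe sets were higher in liver than in both tissues, 5417 departed, and 1 member departed below. Centring arrays on their medians gave 3463 and 4953 of these, 3 members below, and turned the departures of Slc10a1 (-0.20), Slc27a5 (-0.18), Baat (-0.16) and the second Slco1b2 (-0.085). Repeated quantile normalization gave 2801 departures and turned Slco1b2 (0.095). The curve gave 13922 calls of liver against lung, 1128 of liver against both, 232 departures, 5375, 6 and 52 calls in 70/25/5 against 70/5/25, 55/30/15 against 55/20/25 and 65/34/1 against 60/35/5, and 0 members higher in lung in the regression; it turned Slco1a4 in 55/30/15 against 55/20/25 (-0.056) and the departures of Slc10a1 (-0.065), Slc27a5 (-0.053) and Baat (-0.021). In the regression Slc27a5 was also not called after repeated quantile normalization (-222) or without mixture 25/70/5 (-391) or 70/5/25 (-282).

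A share-weighted mean of log2 values, which lies below the linear sum by construction, gave 3275 departures, 7 members above, and turned Slco1b2 (2.78), Slco1a1 (1.58), Slco1a4 (0.18 and 0.10) and Akr1d1 (0.26 and 1.49). In 70/25/5 against 70/5/25, 1 member was called higher in the fit of 33 mixture arrays and 1 with the filter on dim probe sets. Leaving out arrays or mixtures gave 0 to 1 members there, 0 to 1 members departing below, brain against lung of -0.012 to 0.23 and a departure of -0.023 to 0.020 for Slco1b2, and -0.014 to 0.050 for Slco1a4 in 55/30/15 against 55/20/25. The causes of these changes were not tested.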

Other observations

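Relatives of the sodium-dependent carrier and of the bile acyl-CoA synthetase did not share the members' tissue pattern as a group. Of 8 measured Slc10 and Slc27 genes outside the members, 3 were called higher in liver than in brain and 1 higher in brain, while 1 was higher in liver than in lung and 1 higher in lung (limma, adjusted p under 0.05 and 2-fold). Of all 14217 named genes, 2742 were higher in liver than in brain and 2842 higher in brain. Against lung 1955 were higher in liver and 2924 higher in lung. Counts among 8 genes are too small to be set apart from these shares. Slc27a2, a very long chain acyl-CoA synthetase, was 66.3-fold higher in liver than in brain and 40.3-fold higher in liver than in lung. Slc27a1, a fatty acid carrier, was 3.06-fold higher in brain than in liver. Slc10a3 was 2.35-fold higher in lung than in liver and 2.01-fold higher in liver than in brain. Slc10a7 was 2.58-fold higher in liver than in brain. Slc10a4, an orphan carrier of neurons, was 2.72-fold higher in brain than in lung, at 5.38 ± 0.20 (log2, SD, n = 3) in brain. These counts shift with scaling: with each array centred on its median, 2 were higher in liver than in lung and 0 higher in lung, with quantile normalization repeated 0 were higher in lung than in liver, and with the 5th percentile subtracted 3 were higher in liver than in lung. With the curve through the hybridisation controls 1 was higher in liver than in brain and 3 higher in brain, and 3 were higher in lung than in liver.

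Of 5 measured Kupffer cell and macrophage genes, 3 were called higher in liver than in brain, while 2 were higher in liver than in lung and 2 higher in lung. Clec4f, a lectin of Kupffer cells, read 9.79 ± 0.04 in liver, 4.42 ± 0.19 in brain and 4.24 ± 0.22 in lung, and Cd163 read 7.72 ± 0.08, 4.04 ± 0.17 and 4.48 ± 0.14. Lyz2 was 23.0-fold and Csf1r 2.24-fold higher in lung than in liver, and Cd68 read 8.35 ± 0.04 in liver and 9.29 ± 0.10 in lung. Of 5 measured cholangiocyte genes, 2 were higher in liver than in brain, Epcam (10.6-fold) and Krt19 (2.39-fold), and 1 higher in brain, Spp1 (2.65-fold). Against lung 4 were lower in liver, Krt19 (53.4-fold), Krt7 (29.6-fold), Epcam (9.02-fold) and Cftr (4.60-fold), and Spp1 was not called, at 6.89 ± 0.33 in liver and 7.08 ± 0.13 in lung.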
